A study of Arabidopsis thaliana with 12 samples.

Results

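The 30 genes described here were nearly silent in unstressed Arabidopsis seedlings and carried clear transcript levels after 96 h at low water potential. They were chosen from the deposited levels themselves, given as RPKM (reads per kb of gene, scaled to the size of the library). A gene belonged when its mean was below 0.5 RPKM over the 6 control libraries and its level was at least 1.5 RPKM in each of the 6 stress libraries. Of 33602 genes in the tables, 32 met both limits, and HSFA6A and HAI2 were left out by name. The other 10 genes on the same list of exceptions did not meet the limits. Because stress and control levels picked the members, the difference between stress and control is given for them as a description, with no test.

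The 4 groups held 3 libraries each of whole seedlings, a mixture of shoot and root. They were ahl10-1 seedlings under stress, WT seedlings under stress, ahl10-1 seedlings in control and WT seedlings in control. WT is the Col-0 accession, and ahl10-1 carries the T-DNA insertion Salk_073165 in AHL10, which encodes an AT-hook DNA-binding protein of the nucleus. All seedlings grew in continuous light on half-strength MS agar that held no sugar. On day 7 the stressed ones were moved to agar infused with polyethylene glycol 8000, at a water potential of -0.7 MPa against -0.25 MPa in control, and both kinds were collected on day 11. The labels name 1 insertion line and do not say whether seedlings were pooled or whether the replicates came from separate plates, so p-values measure only the spread between these libraries. No second allele and no complemented line is among the samples analysed here.

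Low water potential holds water back from roots and makes plant cells lose turgor. Plants answer in part through abscisic acid, a hormone whose receptors block clade A phosphatases and so free SnRK2 kinases, which act on bZIP factors that bind promoter elements with the core ACGTG. Anthocyanins are red to purple flavonoid pigments that seedlings build up under many stresses. Their late synthesis genes are driven by a complex of MYB, bHLH and WD40 proteins, of which PAP1 is the MYB and TT8 a bHLH.

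Reads assigned to genes ranged from 57996104 to 68555138 per library. AHL10 averaged 14.4 ± 1.79 RPKM in ahl10-1 stress libraries and 31.9 ± 0.343 RPKM in WT stress libraries, and 10.6 ± 1.71 RPKM in ahl10-1 control libraries and 22.2 ± 0.390 RPKM in WT control libraries (SD, n = 3 each). The log2 fold change, ahl10-1 over WT, was -1.09 ± 0.08 under stress (SE, adjusted p 1.28e-04) and -1.01 ± 0.08 in control (SE, adjusted p 2.29e-04) by edgeR's quasi-likelihood test with Benjamini-Hochberg adjustment. Reads from a gene that carries an insertion can come from beside it, so the level says nothing of the protein. Green tissue markers were present in every library, at 20790 to 27970 summed RPKM in ahl10-1 stress, 21530 to 23270 in WT stress, 23100 to 32280 in ahl10-1 control and 22920 to 27310 in WT control for 6 genes. The sum of 8 root markers was 79.1 to 94.5 RPKM in ahl10-1 stress, 77.4 to 97.3 in WT stress, 53.8 to 62.1 in ahl10-1 control and 57.9 to 89.1 in WT control. The part of this difference in the levels of the 30 genes was not tested.

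"Switched on" is a matter of degree. None of the 30 genes lacked reads in all 6 control libraries: together these held between 12 reads (AT2G35070) and 490 reads (AT1G69480) of a gene. The lowest stress library lay above the highest control library for all 30, as it did for 13.2% of the 22604 genes tested, and the choice of members used these values. The ratio of the stress mean to the control mean over 6 libraries each had a median of 15.9 and ran from 4.30 for RHS14 to 280 for AT2G16367. The median of the stress means was 4.66 RPKM, so most of these genes stayed at a modest level when on. All libraries are of whole seedlings, in which fewer cells of a type and less RNA per cell cannot be told apart.

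**Figure D1:**
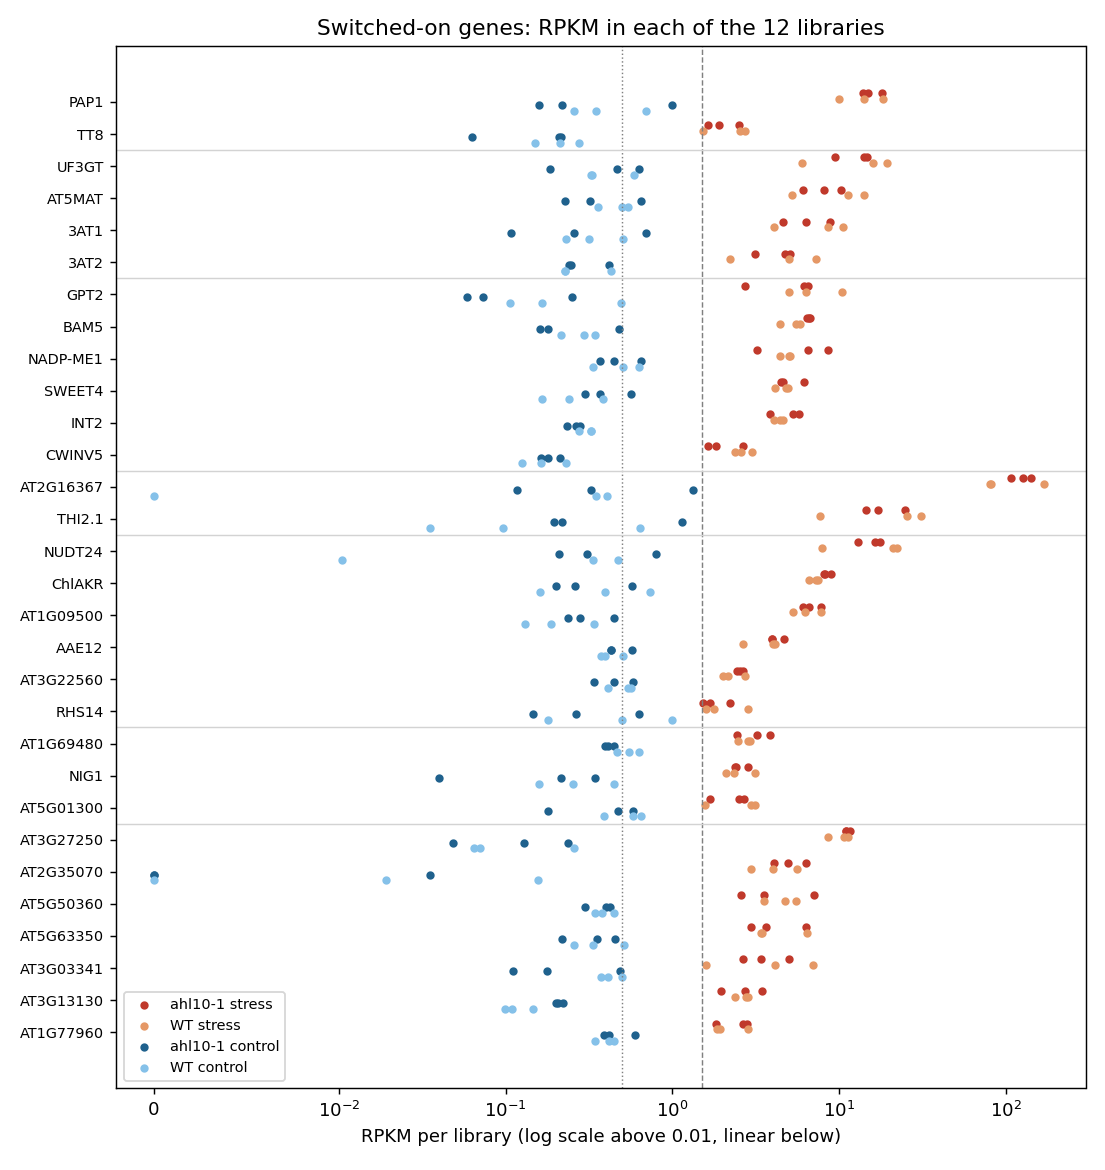
RPKM of each of the 30 genes (rows, grouped by role) in each of the 12 libraries, on an axis that is logarithmic above 0.01 and linear below it; dark red and orange points are ahl10-1 and WT stress libraries, dark and light blue points are ahl10-1 and WT control libraries, and the dotted and dashed lines mark the limits of 0.5 and 1.5 RPKM. Every stress point lies to the right of every control point of the same gene, with the smallest gap at RHS14 and the highest levels at AT2G16367.

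Of the members, 2 regulators and 4 enzymes belong to anthocyanin synthesis. PAP1, the MYB activator of the pathway, had 18.0, 14.8 and 13.8 RPKM in the 3 ahl10-1 stress libraries and 18.2, 10.0 and 14.0 in the WT ones. In control it had 0.994, 0.158 and 0.218 RPKM in ahl10-1 and 0.259, 0.351 and 0.699 RPKM in WT. The stress mean was 33.2 times the control mean, and the genotypes overlapped in both treatments. TT8, its bHLH partner, was far less abundant per length: 2.52, 1.64 and 1.91 RPKM in ahl10-1 stress and 2.73, 1.52 and 2.53 RPKM in WT stress. Its control levels were 0.0629 to 0.213 RPKM in ahl10-1 and 0.149 to 0.275 RPKM in WT.

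The 4 enzymes act late, on the anthocyanin already made. UF3GT adds a xylose to its sugar, AT5MAT a malonyl group, and 3AT1 and 3AT2 a coumaroyl group. UF3GT had 14.6, 9.43 and 14.0 RPKM in ahl10-1 stress and 16.0, 5.98 and 19.4 RPKM in WT stress. Its control levels were 0.185 to 0.628 RPKM in ahl10-1 and 0.326 to 0.592 RPKM in WT. AT5MAT had 10.3, 6.05 and 8.07 RPKM in ahl10-1 stress and 11.2, 5.20 and 14.2 RPKM in WT stress, with every control library at 0.652 RPKM or less. 3AT1 had 8.81, 4.63 and 6.31 RPKM in ahl10-1 stress and 8.61, 4.09 and 10.5 RPKM in WT stress. 3AT2 had 5.07, 3.15 and 4.77 RPKM in ahl10-1 stress and 5.03, 2.21 and 7.29 RPKM in WT stress. In each of these 4 genes the library numbered 2 was the lowest of its group in both genotypes. The coding sequences of 3AT1 and 3AT2 share 1016 identical bases out of the 1041 of the shorter one, and 5.97% and 5.27% of their reads were multi-mapped, so the split of reads between this pair is uncertain.

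The spread of the anthocyanin genes between stress libraries followed the library. Divided by each gene's mean over the 6 stress libraries, the 6 genes had medians of 1.15, 0.699 and 0.911 in ahl10-1 stress libraries 1, 2 and 3, and of 1.21, 0.569 and 1.47 in the WT ones. The other 24 members had medians of 1.12, 1.03 and 0.911 in ahl10-1 and 1.02, 0.909 and 0.920 in WT. Over all genes with a mean of at least 1.5 RPKM under stress, the medians per library were 0.928 to 1.02. Library 2 was the lowest of its group for 5 of the 6 genes in ahl10-1 stress and for 6 of the 6 in WT stress. Among the 18914 genes with a mean of at least 1.5 RPKM under stress that library was lowest for 19.0% in ahl10-1 and for 30.7% in WT. These 6 genes share their libraries and pathway, so their common shape is 1 pattern and not 6 independent ones. Library 2 of WT stress held 60904450 reads, green tissue markers at 23270 summed RPKM and root markers at 77.4 summed RPKM. For library 2 of ahl10-1 stress these were 62219163 reads, 23360 RPKM and 94.5 RPKM. The part of these in the pattern was not tested.

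THI2.1 and NUDT24, which are not pigment genes, had the same shape across the stress libraries. THI2.1, which encodes a thionin, a small antimicrobial peptide, had 24.9, 14.5 and 17.0 RPKM in ahl10-1 stress and 25.6, 7.64 and 30.8 RPKM in WT stress. NUDT24, a Nudix hydrolase, had 17.6, 12.9 and 16.3 RPKM in ahl10-1 stress and 21.2, 7.92 and 22.3 RPKM in WT stress. Both were lowest in library 2 of each genotype. The reverse held in WT for AT3G03341, described in the annotation as cold-regulated, with 4.12, 7.0 and 1.60 RPKM in WT stress libraries 1, 2 and 3. Its levels in ahl10-1 stress were 5.03, 3.41 and 2.66 RPKM.

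**Figure D2:**
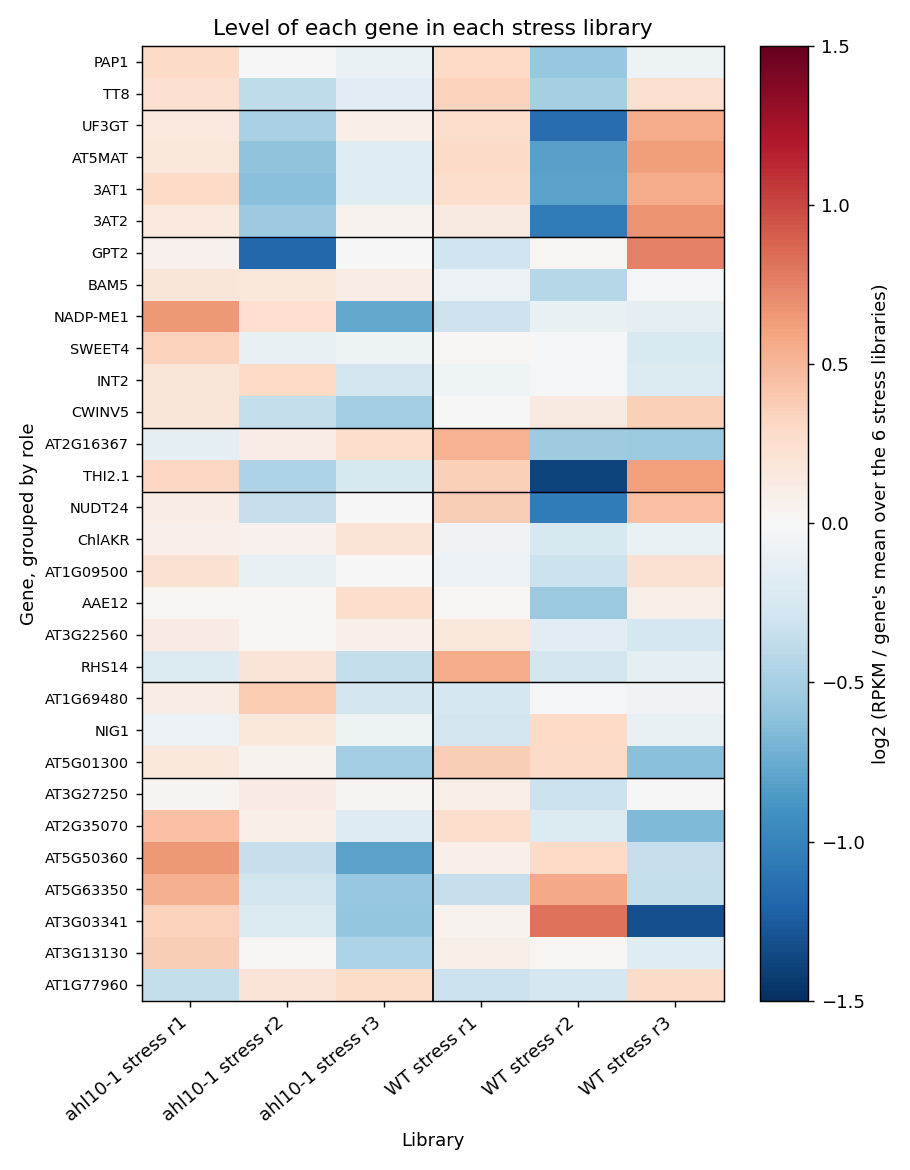
Level of each of the 30 genes in each of the 6 stress libraries (columns; ahl10-1 left, WT right), as the log2 of its RPKM over the gene's mean in those libraries; red is above the mean and blue below. The anthocyanin genes in the top rows, with THI2.1 and NUDT24, are mostly pale blue in ahl10-1 library 2 and darker blue in WT library 2, where the anthocyanin genes' medians were 0.699 in ahl10-1 and 0.569 in WT, relative to the mean.

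The most abundant member was AT2G16367, annotated as a transcribed pseudogene of the defensin-like family and the 1 member that is not protein-coding. It had 107, 127 and 141 RPKM in ahl10-1 stress and 169, 81.4 and 80.2 RPKM in WT stress. In control it had 1.32, 0.327 and 0.116 RPKM in ahl10-1 and 0, 0.347 and 0.403 RPKM in WT. The WT stress libraries thus spanned the ahl10-1 range from both sides. At 0.264 kb its gene model is the shortest of the 30, and the 6 control libraries held 46 of its reads in all.

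Among the members, 6 move or turn over sugars and carbon. GPT2 carries glucose 6-phosphate across the plastid envelope, BAM5 is a beta-amylase, SWEET4 a sugar transporter and INT2 an inositol transporter. CWINV5 is a cell wall invertase and NADP-ME1 a cytosolic malic enzyme. GPT2 had 6.49, 2.74 and 6.17 RPKM in ahl10-1 stress and 5.01, 6.30 and 10.4 RPKM in WT stress, so that ahl10-1 library 2 stood low and WT library 3 high. BAM5 had 6.72, 6.62 and 6.38 RPKM in ahl10-1 stress and 5.55, 4.41 and 5.82 RPKM in WT stress, without overlap between the genotypes. NADP-ME1 had 8.61, 6.54 and 3.21 RPKM in ahl10-1 stress and 4.43, 5.09 and 4.98 RPKM in WT stress, and the ahl10-1 libraries surrounded the WT ones. SWEET4 had 6.14, 4.48 and 4.58 RPKM in ahl10-1 stress and 4.93, 4.78 and 4.11 RPKM in WT stress. INT2 had 5.30, 5.75 and 3.84 RPKM in ahl10-1 stress and 4.44, 4.59 and 4.05 RPKM in WT stress. CWINV5 was the least abundant of the 6, at 1.63 to 2.65 RPKM in ahl10-1 stress and 2.36 to 3.01 RPKM in WT stress. Among the 6, the ratio of stress to control means ran from 11.2 for NADP-ME1 to 32.3 for GPT2.

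ChlAKR is a plastid aldo-keto reductase that detoxifies reactive carbonyls. It had 8.20, 8.13 and 8.93 RPKM in ahl10-1 stress and 7.51, 6.59 and 7.28 RPKM in WT stress, again without overlap. AT1G09500, annotated as an alcohol dehydrogenase-like protein, had 6.11 to 7.76 RPKM in ahl10-1 stress and 5.27 to 7.73 RPKM in WT stress. AAE12, an acyl-activating enzyme, had 3.98 to 4.67 RPKM in ahl10-1 stress and 2.65 to 4.15 RPKM in WT stress. AT3G22560, annotated as an acetyltransferase, had 2.46 to 2.66 RPKM in ahl10-1 stress and 2.02 to 2.74 RPKM in WT stress. RHS14, of the pectate lyase family, had the smallest gap between treatments. Its lowest stress library was 1.53 times its highest control library, and it had 1.52 to 2.22 RPKM in ahl10-1 stress and 1.60 to 2.85 RPKM in WT stress, against 0.145 to 0.634 RPKM in ahl10-1 control and 0.179 to 0.989 RPKM in WT control.

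NIG1, a bHLH transcription factor, had 2.37 to 2.85 RPKM in ahl10-1 stress and 2.1 to 3.12 RPKM in WT stress. AT1G69480, of the EXS family, had 3.20, 3.87 and 2.45 RPKM in ahl10-1 stress and 2.48, 2.92 and 2.84 RPKM in WT stress. Its control levels were 0.395 to 0.444 RPKM in ahl10-1 and 0.465 to 0.627 RPKM in WT. AT5G01300, of the phosphatidylethanolamine-binding family, had 1.69 to 2.70 RPKM in ahl10-1 stress and 1.57 to 3.14 RPKM in WT stress.

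A group of 7 members was listed here as uncharacterized, which does not say that nothing is known of them. AT3G27250 was the most abundant of them, at 11, 11.6 and 11 RPKM in ahl10-1 stress and 11.3, 8.53 and 10.7 RPKM in WT stress. Its lowest stress library was 33.3 times its highest control library. AT2G35070 was the member closest to silence in control, with 0.0351, 0 and 0 RPKM in ahl10-1 control and 0.157, 0 and 0.0191 RPKM in WT control. It had 6.34, 4.93 and 4.08 RPKM in ahl10-1 stress and 5.61, 4.02 and 2.94 RPKM in WT stress, and 2 libraries of ahl10-1 control and 1 of WT control held none of its 12 control reads. AT5G50360 and AT5G63350 carry the same annotated description, as von Willebrand factor A domain proteins. Their coding sequences are identical at 61.9% of the bases of the longer one, against a median of 39.5% over 406 pairs of members. That median includes pairs of unequal length, which lowers the percent. Pairs of like length with unlike descriptions reached 52.9% (CWINV5 and AAE12) and 52.8% (PAP1 and SWEET4). AT3G27250 had 58.4% with AT5G50360 and 58% with AT5G63350, counted the same way. AT5G50360 had 7.02, 3.53 and 2.58 RPKM in ahl10-1 stress and 4.74, 5.51 and 3.52 RPKM in WT stress. AT5G63350 had 6.34, 3.62 and 2.94 RPKM in ahl10-1 stress and 3.43, 6.46 and 3.39 RPKM in WT stress. Within each genotype both were highest in the same library, ahl10-1 library 1 and WT library 2, as was AT3G03341. Library 1 was highest in ahl10-1 stress for 70% of members and for 53.1% of genes with a mean of at least 1.5 RPKM under stress. In WT stress, library 2 was highest for 23.3% of members and for 31.3% of those genes. AT3G13130 had 1.96 to 3.46 RPKM in ahl10-1 stress and 2.37 to 2.86 RPKM in WT stress, and AT1G77960 had 1.81 to 2.81 RPKM in ahl10-1 stress and 1.86 to 2.83 RPKM in WT stress.

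The limits cut through a continuous range of levels. Just inside the control limit stood NADP-ME1, AT1G69480 and AT3G22560, with control means of 0.489, 0.482 and 0.480 RPKM. Just outside it stood SAG29, AT3G48510 and AT4G22960, at 0.501, 0.510 and 0.539 RPKM. Just inside the stress limit stood RHS14, TT8 and AT5G01300, whose lowest stress libraries had 1.52, 1.52 and 1.57 RPKM. AT1G49570, SRO3 and AT5G40790 missed it at 1.49, 1.46 and 1.45 RPKM.

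Control libraries differed in how much of these transcripts they held. Summed over the 30 genes, the level was 14.2, 9.18 and 7.13 RPKM in ahl10-1 control libraries 1, 2 and 3, and 7.94, 10.7 and 11.7 RPKM in the WT ones. Library 1 of ahl10-1 control was the highest of the 6 for 11 of the 30 genes, or 36.7%. Among genes with a mean of at least 1.5 RPKM under stress the share was 25.7%. It held the highest control level of PAP1, 3AT1, THI2.1 and AT2G16367.

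The genotype comparison asks whether these transcripts differ between ahl10-1 and WT seedlings. The limits that chose the members applied to both genotypes, so a gene that stayed off under stress in either one could not be a member. Nor could a gene with a high control level in either one. The counts of members called under stress, in control and for the interaction are therefore descriptions, from which nothing is read against the shares of all genes. Under stress, no member was called different between ahl10-1 and WT at an adjusted p under 0.05 by edgeR's quasi-likelihood test. Of all tested genes 0.0265% were called, which is 6 genes. At an unadjusted p under 0.05 the count of members was 0 of 30, against 3.75% of all genes, and DESeq2, which called 0.135% of genes, called no member either. The log2 fold changes, ahl10-1 over WT, ran from -0.44 for GPT2 to 0.38 for NADP-ME1, with 16 of 30 above 0. Their median was 0.07, and that of all tested genes was 0.01. The authors' deposited table for this comparison called 85 genes and none of the 30. Another 12 genes met the limits in the ahl10-1 libraries alone and 9 in the WT libraries alone, a comparison added after the values were seen. The levels of 1 genotype picked these genes, which favours a difference between genotypes, so their counts are descriptions as well. By edgeR none of these 21 was called under stress (1 had an unadjusted p under 0.05) or in the interaction (2 had). DESeq2 called 1 of the 12 under stress, CSLA01 of the cellulose synthase-like family, with an adjusted p of 0.0491, at a log2 fold change of 1.41 by edgeR (adjusted p 0.999).

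The intervals show what size of difference the 3 libraries a group leave possible. INT2 had the smallest unadjusted p, 0.0980 by edgeR, with a log2 fold change of 0.23 and a 95% interval of -0.05 to 0.52. BAM5 was higher in ahl10-1 by 0.38, with an interval of -0.16 to 0.91, and ChlAKR by 0.30, with an interval of -0.46 to 1.05. These 2 of 30 genes were the members whose stress libraries did not overlap between genotypes, which 12.9% of all tested genes also did. CWINV5 had -0.33 with an interval of -0.79 to 0.12, and GPT2 -0.44 with an interval of -1.5 to 0.61. PAP1 had 0.19 with an interval of -0.69 to 1.07, and THI2.1 -0.14 with an interval of -1.51 to 1.24. On simulated counts of this design, edgeR recovered 44 of 50 genes changed 2-fold and 28 of 50 genes changed 1.5-fold under stress, among genes with at least 100 mean reads, and made 15 false calls beside 168 true ones of all sizes. The simulation changed 200 genes, so the same adjusted p was easier to reach there than in the data, where 6 genes were called. For a single member the interval above, and not the counts recovered in the simulation, gives the precision.

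In control, again no member was called, against 0.0177% of all genes by edgeR, and DESeq2, at 0.0989% of genes, also called none. The test is weak here, because the members have few control reads. The control limit also kept out genes with a high control level in 1 genotype, so these counts are descriptions. In control 2 members had an unadjusted p under 0.05 (5.34% of all genes did). For AT3G13130 edgeR gave 0.88 on the log2 scale with an SE of 0.31 and an adjusted p of 0.854, at 0.200 to 0.220 RPKM in ahl10-1 against 0.0994 to 0.145 RPKM in WT. For SWEET4 it gave 0.69 with an SE of 0.30 and an adjusted p of 0.854, at 0.301 to 0.562 RPKM in ahl10-1 control against 0.165 to 0.382 RPKM in WT control. The authors' deposited table for control called 18 genes and none of the 30.

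The interaction asks whether the response to stress differs between genotypes, and it called no gene at all with edgeR (0%) and no member with DESeq2 (0.00367% of genes). At an unadjusted p under 0.05 it held 1 member, against 1.42% of all genes. That member was AT1G69480, whose response was larger in ahl10-1 by 0.58 on the log2 scale, with a 95% interval of 0.07 to 1.09 and an adjusted p of 1.00 by edgeR. AT3G13130 had -0.80 with an interval of -1.61 to 0.0033, and INT2 0.43 with an interval of -0.04 to 0.90. AT2G35070 had the largest value, 2.43, but its interval of -0.57 to 5.42 rests on the 12 control reads, and without WT control library 1 the value was -0.0058.

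**Figure D3:**
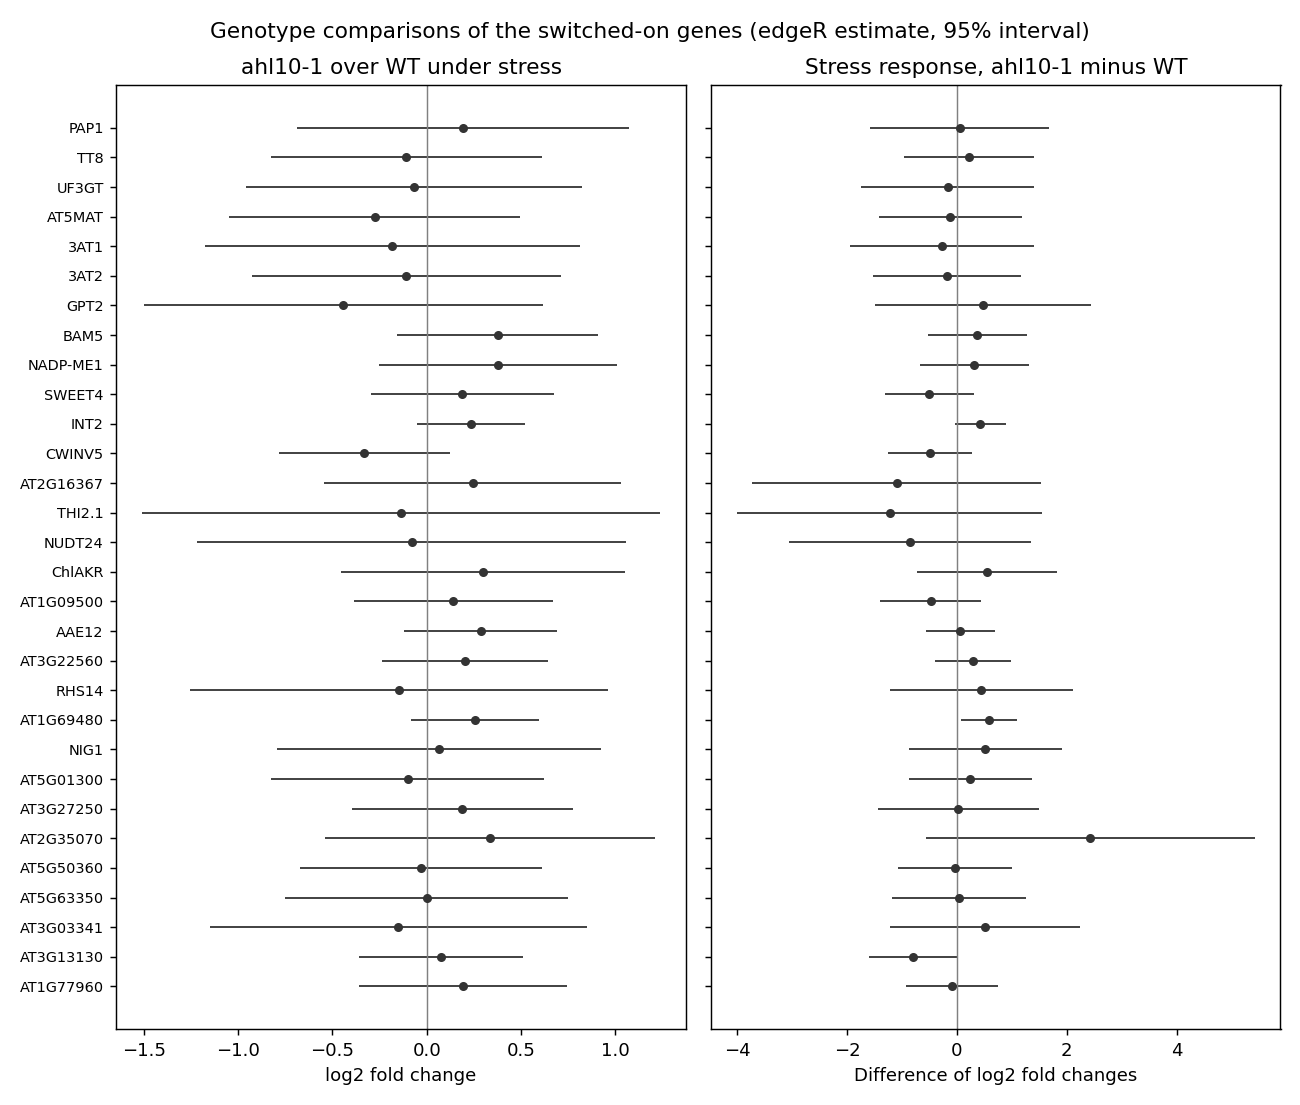
Points are edgeR's log2 fold changes of ahl10-1 over WT under stress (left) and of the difference in stress response, ahl10-1 minus WT (right), for each of the 30 genes, with 95% intervals as bars. On the left every interval includes 0; on the right the interval of AT1G69480, 0.07 to 1.09, does not, before any adjustment for the number of genes.

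The 30 genes were spread over the 5 chromosomes, with 10, 4, 7, 3 and 6 on chromosomes 1 to 5. The closest pair, 3AT1 and 3AT2, had 60 genes between them, so no 2 members are neighbours. Another gene overlaps 8 members, among them THI2.1, 3AT1, CWINV5, AT1G69480 and AT3G03341. Whether the authors' counting used strand is not given in the sources used here, so reads of these 8 and their partners may not be separate.

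The promoters were read from RefSeq's TAIR10.1 genome and annotation, from 250 bases before to 50 bases after each gene's start. All 30 members matched by identifier, and 27444 protein-coding genes give the share of all promoters. The deposited gene lengths equal those of RefSeq's longest transcripts for 31.8% of genes and for none of the 30, so the starts are RefSeq's and may differ from the authors' gene models. ACGTG, the core of the abscisic acid response element (ABRE core), was on either strand in 18 of 30 windows (60%) and in 26.7% of all. Its longer form ACGTGNC (ABRE) was in 10 of 30 (33.3%) and in 10.3% of all. CACGTG, the G-box that bHLH and bZIP factors bind, was in 9 of 30 (30%) and in 7.68% of all. These motifs overlap, since the core lies within both longer ones. ACCGAC (DRE A) and GCCGAC (DRE G), the dehydration responsive elements of DREB factors, were in 2 of 30 each (6.67%), against 5.70% and 3.28% of all. GAANNTTC, a core of heat shock elements, was in 3 of 30 (10.0%) and 11.6% of all, and TATAAA was in 17 of 30 (56.7%) and 52.1% of all. These are counts of letters, with no test.

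**Figure D4:**
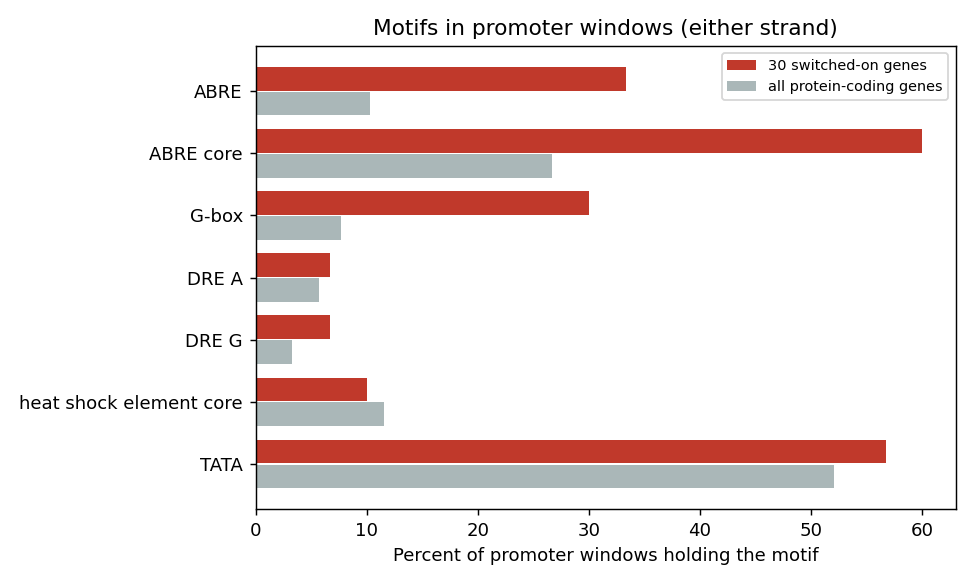
Percent of promoter windows that hold each motif on either strand, for the 30 switched-on genes (red) and for all 27444 protein-coding genes (grey); the letters of each motif stand in the text. For ABRE, the ABRE core and the G-box the red bars reach 33.3%, 60% and 30% and the grey ones 10.3%, 26.7% and 7.68%, while the bars are of like length for the heat shock core and TATA.

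The promoters of 5 members show how the motifs are placed. Each line holds the 250 bases before the RefSeq start, 5′ to 3′ on the gene's strand, in lower case, with matches to the ABRE, its core, the G-box and both DRE motifs, on either strand, in capitals. UF3GT (TAIR10.1, chr5:21938397-21938646, minus strand) was the 1 anthocyanin enzyme with the core and had G-boxes at 171 and 128 bases before the start. SWEET4 (chr3:10409978-10410227, minus strand) had 5 matches to the core, where a G-box counts as 2 because it holds the core on both strands. AT1G69480 (chr1:26117956-26118205, minus strand), the member with the smallest interaction p, had G-boxes at 143 and 32 bases and a GCCGAC at 127 bases. AT3G03341 (chr3:790694-790943, minus strand) had the core at 135 bases, a G-box at 94 bases and an ACCGAC at 61 bases. AT5G63350 (chr5:25381318-25381567, minus strand) had no core and an ACCGAC at 167 bases, while AT5G50360, the other member with that description, had 6 matches to the core, counted the same way.
UF3GT: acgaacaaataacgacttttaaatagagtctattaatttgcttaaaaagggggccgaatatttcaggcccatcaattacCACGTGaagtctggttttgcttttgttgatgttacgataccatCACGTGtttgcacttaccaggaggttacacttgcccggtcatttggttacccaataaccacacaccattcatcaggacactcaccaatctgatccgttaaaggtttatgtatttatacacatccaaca
SWEET4: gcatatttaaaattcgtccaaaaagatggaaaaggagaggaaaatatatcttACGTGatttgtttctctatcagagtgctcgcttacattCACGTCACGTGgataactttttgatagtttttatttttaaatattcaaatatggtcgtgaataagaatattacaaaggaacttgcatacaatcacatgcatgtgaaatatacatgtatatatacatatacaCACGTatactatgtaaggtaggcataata
AT1G69480: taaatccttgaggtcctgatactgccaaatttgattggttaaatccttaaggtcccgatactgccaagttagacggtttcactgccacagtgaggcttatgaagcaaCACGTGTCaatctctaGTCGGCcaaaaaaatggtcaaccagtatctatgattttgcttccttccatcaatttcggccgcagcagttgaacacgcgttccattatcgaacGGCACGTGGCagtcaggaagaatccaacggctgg
AT3G03341: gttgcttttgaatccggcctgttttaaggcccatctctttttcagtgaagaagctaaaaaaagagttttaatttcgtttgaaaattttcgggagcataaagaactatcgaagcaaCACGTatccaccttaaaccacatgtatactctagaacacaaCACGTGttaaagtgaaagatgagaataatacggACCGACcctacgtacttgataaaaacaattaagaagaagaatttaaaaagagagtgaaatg
AT5G63350: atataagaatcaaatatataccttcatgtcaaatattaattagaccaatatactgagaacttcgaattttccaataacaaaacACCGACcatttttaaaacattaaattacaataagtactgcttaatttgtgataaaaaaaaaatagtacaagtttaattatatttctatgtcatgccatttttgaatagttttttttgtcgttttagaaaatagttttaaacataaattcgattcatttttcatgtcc

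Within the anthocyanin group, TT8 had ACGTGNC at 175 bases before the start, and PAP1 had the core only within the 50 bases after it. AT5MAT, 3AT1 and 3AT2 had no core in the window. UF3GT, with 2 G-boxes, and AT5MAT, with no core, had the same order of libraries within each genotype under stress. The part of the motifs in the levels was not tested.

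The rest of the anthocyanin pathway was looked up in a list of 24 other genes, drawn up after the members' values were seen. Under stress 13 of the 23 tested genes were called in ahl10-1 (12 higher, 1 lower) and 11 in WT (10 higher, 1 lower), with median log2 fold changes of 0.70 and 0.53. Of all tested genes 27.8% were called in ahl10-1 (14.2% higher, 13.5% lower) and 24.2% in WT (11.7% higher, 12.5% lower), with medians within 0.01 of 0. DFR, the first enzyme of the branch to anthocyanin, averaged 49.6 ± 13.6 RPKM in ahl10-1 stress, 57.4 ± 22.8 in WT stress, 1.78 ± 1.01 in ahl10-1 control and 2.05 ± 0.694 in WT control (SD, n = 3 each). It rose by 4.73 ± 0.46 in ahl10-1 (SE, adjusted p 7.35e-05) and by 4.75 ± 0.46 in WT (SE, adjusted p 8.51e-05), as log2 fold changes by edgeR with Benjamini-Hochberg adjustment. LDOX, the next enzyme, rose by 4.20 and 4.57, the transport protein TT19 by 4.27 and 4.51, and the glucosyltransferase UGT75C1 by 4.00 and 4.18, in ahl10-1 and in WT. These 4 genes missed the limit of 0.5 RPKM in control and so are not members. Their lowest stress library was WT library 2, as for the 6 members.

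Not every late enzyme of this list rose as DFR did. SCPL10, BGLU10, UGT78D2 and UGT84A2 had stress means over 6 libraries of 2.33, 1.68, 1.52 and 1.06 times their control means. Early enzymes, which also serve other flavonoids, had smaller fold changes than DFR as well, such as 1.85 times for F3H. TT4, chalcone synthase, had a log2 fold change of 0.39 in each genotype and was not called (edgeR adjusted p 0.220 in ahl10-1 and 0.238 in WT). F3H rose by 0.90 in ahl10-1 and 0.73 in WT. PAP2, a close relative of PAP1, rose by 2.26 in ahl10-1 and 2.79 in WT, and its highest stress level was in WT library 2, at 11.1 RPKM. MYB113, another relative, rose by 2.54 and 3.08, at 0.344 to 0.745 RPKM in ahl10-1 stress and 0.0824 to 0.559 RPKM in WT stress. The MYB113 call was lost without WT control library 1 (adjusted p 0.0665), WT stress library 1 (0.0659) or WT stress library 3 (0.0691) in WT, and without ahl10-1 control library 2 (0.0603), control library 3 (0.0610) or stress library 3 (0.0588) in ahl10-1, all by edgeR. TTG1, the WD40 protein of the complex, fell by 0.21 in ahl10-1, and its call was lost without ahl10-1 control library 2 (0.0853) or 3 (0.0752) or ahl10-1 stress library 1 (0.0824) or 2 (0.0522), as adjusted p by edgeR. In WT its log2 fold change was -0.15 and not called. MYBL2, a repressor, fell by 1.44 in WT, with an adjusted p of 0.0420 by edgeR that was above 0.05 without any 1 of 7 libraries, the highest being 0.125 without WT stress library 1. In ahl10-1 it had -1.28, not called (edgeR adjusted p 0.0584), and was called without ahl10-1 control library 2 (0.0109). The 7 libraries were ahl10-1 control libraries 1 and 3, ahl10-1 stress library 3, WT control libraries 1 and 3 and WT stress libraries 1 and 3.

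Of 47 genes of abscisic acid and low water potential that are no members, 36 were called in ahl10-1 (35 higher, 1 lower), against 27.8% of all genes, and 31 in WT (29 higher, 2 lower), against 24.2% of all genes. Their median log2 fold changes were 1.00 and 0.86. P5CS1, which makes proline, had 265 to 274 RPKM in ahl10-1 stress, 208 to 254 in WT stress, 19.3 to 29.0 in ahl10-1 control and 19.2 to 25.3 in WT control. It rose by 3.50 ± 0.15 in ahl10-1 (SE, adjusted p 2.23e-07) and 3.28 ± 0.15 in WT (SE, adjusted p 4.28e-07) by edgeR. RD20, a caleosin, rose by 3.28 and 3.39, and HB7, a homeodomain factor, by 2.30 and 2.08. TMAC2, a negative regulator of abscisic acid responses, fell by 2.04 in ahl10-1 and by 2.16 in WT. P5CS1, RD20 and HB7 had control means of 23.0, 3.55 and 15.4 RPKM over 6 libraries, above the limit of 0.5 RPKM. MYB102, a MYB factor, was below it at 0.137 RPKM and reached only 0.572 to 1.60 RPKM under stress, short of the other limit.

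Of 13 regulators of seed maturation 9 had enough reads to test, and 2 were called in ahl10-1 (1 higher, 1 lower) and 3 in WT (1 higher, 2 lower). All genes had 27.8% called in ahl10-1 and 24.2% in WT, which is also the background of the lists that follow. FUS3 rose by 2.27 in ahl10-1 and 2.69 in WT, at no more than 0.349 RPKM in any library, and its call in WT was lost without WT stress library 1 (edgeR adjusted p 0.0704) or 3 (0.0618). In ahl10-1 it was lost without control library 2 (edgeR adjusted p 0.0653) or 3 (0.0735) or stress library 1 (0.0670). BZIP53 fell by 0.48 and 0.47; 100% of its reads were multi-mapped, so they may not be its own, and its WT call was lost with limma (adjusted p 0.0537 and 0.0545 with pseudocounts of 0.1 and 1). DOG1, a dormancy gene, had -0.88 in ahl10-1 (edgeR adjusted p 0.0703, not called) and fell by 1.49 in WT. With the replicate block in the ahl10-1 libraries DOG1 was called (edgeR adjusted p 0.0360), as it was without WT stress library 2 (0.0454) or ahl10-1 control library 2 (0.0306). Of 20 seed storage and oil body genes, 10 were tested and 2 were called in each genotype, EM1 at 3.03 in ahl10-1 and 2.97 in WT, and HSD1 at 3.48 and 1.58. For HSD1 100% of the reads were multi-mapped, so these values cannot be assigned to it alone. It had at most 0.140 RPKM in any library, and its WT call was lost without any 1 of the WT libraries or ahl10-1 stress library 1 or 2, with edgeR adjusted p up to 0.125, and with DESeq2 (0.0886).

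Of 12 suberin genes, ASFT, the feruloyltransferase of suberin, rose by 0.67 in ahl10-1 and 0.55 in WT, and MYB39 had -0.34 in ahl10-1, not called, and fell by 1.45 in WT. ASFT in WT was no longer called without WT control library 1 (edgeR adjusted p 0.0535), WT control library 2 (0.0527) or WT stress library 1 (0.0676). In ahl10-1 the count of suberin genes called was 1, and 7 without stress library 3. Of 5 senescence genes tested out of 6, SEN1 fell by 3.33 in ahl10-1 and 3.16 in WT, and SGR1, which starts chlorophyll breakdown, rose by 0.37 in ahl10-1 and had 0.12 in WT. With the replicate block in the ahl10-1 libraries SEN1 was not called (edgeR adjusted p 0.108). SGR1 was lost without ahl10-1 control library 1 (edgeR adjusted p 0.0684) or 3 (0.0795) or stress library 1 (0.0614) or 2 (0.0952). The 8 root markers had 4 calls in ahl10-1 (3 higher, 1 lower) and 3 higher in WT. Of 6 shoot markers none was called in ahl10-1, where 2 had an unadjusted p under 0.05 by edgeR (39.4% of all genes did), and 1 was called lower in WT. Of 5 pollen markers 1 could be tested and was called in neither genotype, and their sum stayed at 0.284 to 1.3 RPKM.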

How the data were processed

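Polyadenylated, strand-specific libraries were made from whole seedlings, per the labels. Per the submitters' processing notes, CASAVA, bcl2fastq 1.8.4, Bowtie2 and DESeq2 were used with TAIR10, with no role or order given. Per the file headers, each deposited table holds estimated counts of reads per gene, RPKM, gene length and the fraction of multi-mapped reads (1.25% to 2.33% of a library). The authors' deposited comparison tables hold a log2 fold change with its standard error, a Wald statistic (a score), and p-values with adjusted p-values. Only the authors' calls for the genotype comparisons are quoted.

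Groups follow the labels. Members and gene lists were chosen with earlier results of these data known. Estimated counts were rounded and fitted with edgeR 4.0.16 in R 4.3.3 (filterByExpr with minimum count 10 and total 15, which left 22604 genes and all 30 members; TMM; robust quasi-likelihood; all 12 libraries in 1 model of 4 groups, leaving 8 residual df; Benjamini-Hochberg over all tested genes, called under 0.05). The fit was tested on simulated data. Intervals are 95% and come from the spread of these libraries. Alternatives used DESeq2 1.42.0 and limma 3.58.1 on log2(RPKM + 1) and log2(RPKM + 0.1). Figures were drawn with matplotlib 3.10.9.

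Named members are the 15 most abundant under stress, the 5 at each end of the genotype ratio, the 5 smallest p of the genotype and interaction tests, those next to each limit, and transcription factors. Up to 4 genes a list were named by p in WT; the lists are abscisic acid and low water potential, seed maturation regulators, seed storage and oil body, suberin, senescence, and shoot, root and pollen markers. The anthocyanin list, and the genes named from it, were added after the values were seen; so were SGR1 and a few members named beyond the rule. Same-numbered ahl10-1 control and stress libraries deviated together from their group means (correlations 0.242, 0.223 and 0.281 over genes for numbers 1, 2 and 3), by the numbers in the sample titles, so a block was also fitted for that comparison.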

Additional observations from a re-analysis of the deposited data

How the results depend on the processing

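The size of the set depends on its limits. With a control mean below 0.25 RPKM in place of 0.5 it held 7 genes and below 1 RPKM it held 79; with at least 3 RPKM in each stress library it held 14. With library sizes scaled by TMM it held 29 genes, 26 of them shared, and leaving out each library in turn gave 28 to 34. The WT libraries alone gave 35 genes, of which 26 were shared, and the ahl10-1 libraries alone gave 40, of which 28 were shared. The core ACGTG in place of ACGTGNC took the count of promoters from 10 to 18, and the longer form was in 9 with the 250 bases before the start alone and in 12 with 1000 bases (20.0% of all promoters).

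The number of members called between genotypes was 0 under stress, in control and for the interaction with every alternative run, DESeq2, limma and each library left out included. Compared groups alone could not be applied to the interaction. Signs of small genotype differences under stress moved with single libraries: 3AT1, at -0.18, ranged from -0.49 (without WT stress replicate 2) to 0.11 (without WT stress replicate 3), and was 0.023 without ahl10-1 stress replicate 2. AT5MAT, at -0.28, ranged from -0.59 to 0.049 (the same libraries), and RHS14, at -0.15, from -0.31 (without ahl10-1 stress replicate 2) to 0.14 (without WT stress replicate 1). The interaction of AT2G35070 ranged from -0.0058 (without WT control replicate 1) to 5.12 (without ahl10-1 control replicate 1). None of these was called in either case.

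With the replicate number as a block, members called stayed at 0 in all 3 comparisons, and pooled list genes numbered 42 in ahl10-1, against 43 without the block, and 40 in WT, against 39. A block in the ahl10-1 libraries alone also gave 42. The block in all libraries ended the call of MYBL2 in WT (edgeR adjusted p 0.0540), and the block in the ahl10-1 libraries changed those of SEN1 and DOG1 and left HSD1 without a value; it changed no other call of a named gene. Outside ahl10-1 the numbers were not taken as pairs, since not every correlation was over 0.1; they were 0.035, -0.018 and -0.002 between WT stress and control, 0.127, 0.090 and 0.131 between genotypes under stress, and 0.218, 0.287 and -0.197 between genotypes in control. As a hint from the data, each library correlated best with its own number in 3 of 3 pairs between genotypes under stress, 2 of 3 in control and 1 of 3 between WT stress and control. Each library left out in turn gave 34 to 50 pooled list genes in ahl10-1 and 33 to 41 in WT. With limma on log2(RPKM + 1) the calls of FUS3 (adjusted p 0.0558), MYB113 (0.0538) and HSD1 (0.136) in WT and of HSD1 (0.0647) and TTG1 (0.153) in ahl10-1 were lost. DESeq2 called DOG1 (adjusted p 0.0346) and MYBL2 (0.0180) in ahl10-1, and with no filter on low counts MYBL2 in WT was lost (0.0689 by edgeR). Control reads, 12 to 490 per member over 6 libraries, limit the control and interaction tests.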
